A study of Mus musculus with 12 samples.

Results

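Hearts of mice that received the PRODH virus and pressure overload were compared with hearts of mice that received neither: an empty vector and sham surgery. The comparison takes 6 of the 12 libraries of the study, 3 labelled AAV9-PRODH and TAC and 3 labelled AAV9-Vector and Sham, chosen by their labels alone. Described below are the genes called different between them, and further named genes that were not called. All animals were wild-type C57BL/6 mice, and all received an adeno-associated virus of serotype 9, carrying either Prodh for overexpression in the heart or the empty vector. Surgery, transverse aortic constriction (TAC) or sham, came 3 weeks after the injection, and heart tissue was taken 4 weeks after surgery. The other groups, vector TAC and PRODH sham, have 3 libraries each and serve here as reference points. The sources used here do not give the promoter of the transgene, the species of its coding sequence or the age of the animals. The labels do not say whether replicate numbers mark a shared litter, batch or day, so the p-values measure the spread between these samples. Virus and surgery both differ between the PRODH TAC and vector sham groups, so their effects cannot be told apart in this comparison alone.

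TAC narrows the aortic arch, so that the left ventricle pumps against a raised pressure, and the ventricle answers with hypertrophy, a return of fetal genes such as the natriuretic peptides, matrix deposition by activated fibroblasts, and a fall of genes for fatty acid oxidation and ion channels. PRODH, proline dehydrogenase, is the mitochondrial enzyme that takes the first step of proline breakdown and passes electrons to the respiratory chain. Stretch-sensitive myocyte genes and rapidly induced transcription factors are known to respond to mechanical load.

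Values are read counts per gene that the depositors divided by 1 size factor per library, and are called normalised counts here. They are not divided by transcript length, so levels are compared between samples and not between genes. Recovered totals ran from 10.1 to 15.2 M reads per library. Cardiac troponin T (Tnnt2) lay between 50455 and 98696 normalised counts in the 12 libraries, so cardiac muscle RNA was present in each. On the first principal component, which held 36.3% of the variance of the 1000 most variable genes, the vector sham libraries lay between -21.9 and -11.6, the PRODH TAC libraries between -4.94 and 3.42 and the vector TAC libraries between 27.5 and 47.3. The PRODH TAC hearts thus sat between both vector groups, without overlap with either. Of the reference groups, 2 libraries stood apart through epicardial and mesothelial markers, with a mean level of those markers 2.99 above the vector sham mean on the log2 scale in vector TAC replicate 1 and 2.94 in PRODH sham replicate 2. These 2 libraries also had the highest erythroid marker levels, 1.68 and 2.05. Ribosomal protein genes stood at 1.01 in vector TAC replicate 1 and at -0.36 in both other vector TAC libraries.

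Of 21173 genes tested, 19 differed between PRODH TAC and vector sham hearts at an adjusted p under 0.05 (limma on log2(value + 1), Benjamini-Hochberg adjustment, 12 libraries fitted together). These were 0.0897% of the genes, 18 of them higher in PRODH TAC hearts (0.085%) and 1 lower (0.00472%). The higher genes were Nppb, Ankrd1, Ankrd23, Abra, Klhl34, Uck2, Tnfrsf12a, Ccn1, Nr4a1, Nr4a3, Atf3, Ier5, Ppp1r15a, Sik1, Otud1, Tbx15, Gm47985 and Prodh itself, and the lower one was Ano10. Each of the 19 showed no overlap between the 3 PRODH TAC and the 3 vector sham libraries. They were called on these same libraries, so the separation is a description only. Over all genes, 6.39% lay above vector sham without overlap and 6.09% below. The sizes of the log2 differences of the 19 ran from 0.71 to 3.11. By the same fit, 1645 genes (7.77%) differed between vector TAC and vector sham hearts and 831 (3.92%) between PRODH TAC and vector TAC hearts. These comparisons share libraries with the one described here. Without adjustment, 712 genes were higher in PRODH TAC than in vector sham hearts at p under 0.05 (3.36%) and 585 lower (2.76%).

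**Figure D1:**
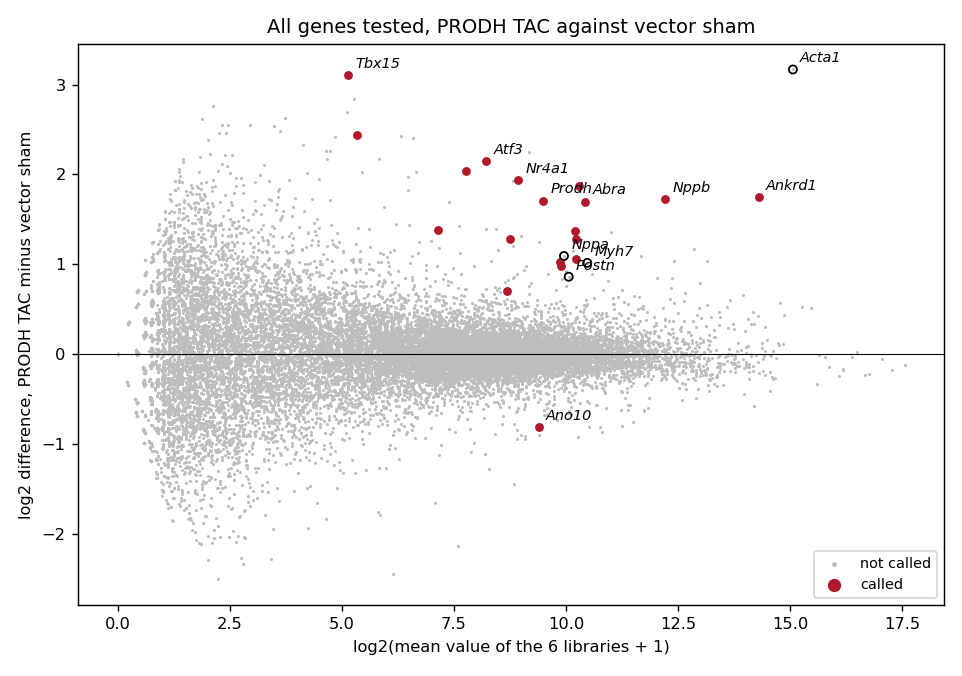
Log2 difference between PRODH TAC and vector sham hearts (vertical axis) against the log2 of the mean value of the 6 libraries plus 1 (horizontal axis) for the 21173 genes tested. Red points are the 19 called genes, and open circles mark Nppa, Myh7, Postn and Acta1, which were not called; Acta1 has a difference of 3.17, above those of the called genes.

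The number of calls depended on single libraries and on how the spread was estimated. It dropped to 1 without PRODH TAC replicate 1, to 3 without PRODH TAC replicate 3, to 4 without vector sham replicate 1, to 9 without PRODH TAC replicate 2 and to 10 without vector sham replicate 2, and rose to 45 without vector sham replicate 3 and to 79 without vector TAC replicate 1. With only the 6 libraries of the comparison limma called 0 genes, with a smallest adjusted p of 0.071 and 1596 genes at an unadjusted p under 0.05, while edgeR on the recovered reads of the same 6 libraries called 103, among them all 19. The log2 difference of every one of the 19 genes kept its sign in all 12 fits that left out a library, and Nppb was called in all 12.

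Promoter sequences are shown for 5 of the genes, Nppb, Ankrd1, Ccn1, Nr4a1 and Ppp1r15a, as examples of genes that were called higher together in PRODH TAC hearts. Against vector TAC they differ, with Nppb and Ankrd1 below it, Nr4a1 above it, and Ccn1 and Ppp1r15a overlapping it. RefSeq promoter windows of the mouse build GRCm38.p6 were at hand for 15 of the 19 genes, each from 250 bases before to 50 bases after a transcription start, and the 250 bases before the start are printed, 5′ to 3′ on the gene's strand. Capitals mark the MCAT element CATTCC, which TEAD factors are known to bind, and the core TGACG of the cyclic AMP response element (CRE), known as a site of CREB and ATF factors, on either strand, so that GGAATG and CGTCA are the same sites read on the opposite strand.
Nppb, chr4:147985650-147985899 (plus strand): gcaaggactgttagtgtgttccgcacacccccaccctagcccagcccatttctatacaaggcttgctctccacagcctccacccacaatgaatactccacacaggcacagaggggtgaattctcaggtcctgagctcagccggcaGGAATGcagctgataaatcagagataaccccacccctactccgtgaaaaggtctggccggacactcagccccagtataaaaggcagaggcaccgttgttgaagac
Ankrd1, chr19:36119845-36120094 (minus strand): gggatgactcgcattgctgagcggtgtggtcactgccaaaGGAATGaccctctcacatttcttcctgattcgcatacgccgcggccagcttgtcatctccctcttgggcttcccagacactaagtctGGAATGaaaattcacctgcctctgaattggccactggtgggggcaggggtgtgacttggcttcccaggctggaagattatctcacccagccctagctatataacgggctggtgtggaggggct
Ccn1, chr3:145649986-145650235 (minus strand): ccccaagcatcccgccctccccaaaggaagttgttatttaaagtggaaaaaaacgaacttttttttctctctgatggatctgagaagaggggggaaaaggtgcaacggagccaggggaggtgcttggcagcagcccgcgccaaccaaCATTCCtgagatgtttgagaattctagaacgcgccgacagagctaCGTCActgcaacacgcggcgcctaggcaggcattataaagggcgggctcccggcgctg
Nr4a1, chr15:101266596-101266845 (plus strand): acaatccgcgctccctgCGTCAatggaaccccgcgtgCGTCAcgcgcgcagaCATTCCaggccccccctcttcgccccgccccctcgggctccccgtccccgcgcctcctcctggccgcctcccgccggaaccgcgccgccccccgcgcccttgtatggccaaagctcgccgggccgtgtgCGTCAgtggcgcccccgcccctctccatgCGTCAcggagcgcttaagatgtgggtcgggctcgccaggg
Ppp1r15a, chr7:45526269-45526518 (minus strand): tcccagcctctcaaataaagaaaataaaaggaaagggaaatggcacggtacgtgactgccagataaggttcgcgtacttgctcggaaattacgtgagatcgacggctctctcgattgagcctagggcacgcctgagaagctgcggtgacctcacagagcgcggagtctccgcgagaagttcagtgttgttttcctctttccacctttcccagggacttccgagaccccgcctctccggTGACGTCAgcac

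The MCAT letters occurred in the window of 8 of the 15 genes, namely Nppb, Ankrd1, Ankrd23, Ccn1, Nr4a1, Nr4a3, Otud1 and Prodh, and in 14.7% of all 32851 windows. Ankrd1 had them at 2 places. The CRE core was present in 7 of the 15, namely Nr4a1, Nr4a3, Atf3, Otud1, Ccn1, Ppp1r15a and Ano10, against 20.8% of all windows, and Nr4a1 held it at 4 places. Ppp1r15a was the only one of the 15 with the full CRE, TGACGTCA, which contains the core on both strands and was present in 1.79% of all windows. The AP-1 letters TGANTCA (7.81% of all windows) and the CArG box (1.63%) were in none of the 15, and TATAAA (13.6%) was in 3. These matches describe letters in a short window, and the motifs were picked with the genes in view.

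Prodh was the first gene to check, since the virus was meant to raise it. It stood at 334, 292 and 379 normalised counts in the 3 vector sham hearts and at 964, 1319.9 and 1021 in the 3 PRODH TAC hearts. All PRODH TAC values were above all vector sham values, a log2 difference of 1.71 ± 0.24 (SE, n = 3 and 3; limma, adjusted p = 0.013), or 3.29-fold on the ratio of means. PRODH sham hearts held 965, 497 and 1072, and vector TAC hearts 245, 172 and 159.6. The level in PRODH TAC hearts thus overlapped that of PRODH sham hearts and exceeded that of the loaded vector hearts by 2.52 ± 0.24 on the log2 scale (limma, adjusted p = 0.00017). Counts of the viral and the endogenous transcript cannot be told apart here, and Prodh overlaps Dgcr6 on the opposite strand. Dgcr6 itself differed by -0.02 (limma, adjusted p = 1.00).

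Of 24 measured genes of proline metabolism, Prodh was the one called, by limma and by DESeq2, and the median log2 difference was -0.03, beside 0.01 over all genes. Without overlap, 3 of the 24 lay above vector sham (6.39% of all genes did so) and 6 below it (6.09% of all genes), and at an unadjusted p under 0.05 there were 3 higher and 3 lower. The lowest difference was the -0.60 of Gpt2, the mitochondrial alanine aminotransferase. Aldh4a1, which completes the breakdown of proline to glutamate, held 914, 1175 and 1269 normalised counts in vector sham and 1036, 1118 and 1155 in PRODH TAC hearts. These ranges overlapped, and the log2 difference was -0.01 with a 95% interval from -0.34 to 0.32; in vector TAC hearts Aldh4a1 was 0.79 ± 0.15 lower than in vector sham (limma, adjusted p = 0.0048). Pycr1, which makes proline in mitochondria, was at 10.3, 13.6 and 21.0 in vector sham and 29.8, 16.5 and 17.6 in PRODH TAC hearts, also with overlap (log2 difference 0.49, 95% interval -0.30 to 1.27).

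Nppb, the gene for brain natriuretic peptide and a clinical marker of ventricular wall stress, had the smallest p of all genes. Vector sham hearts held 2558, 2677 and 1542 normalised counts and PRODH TAC hearts 6963, 6821 and 8023. The lowest PRODH TAC heart was above the highest vector sham heart by a wide margin, and the log2 difference was 1.72 ± 0.18 (95% interval 1.34 to 2.11; limma, adjusted p = 0.0019). Vector TAC hearts reached 14077, 15576 and 15581, so the PRODH TAC values lay between the vector groups and overlapped neither. Against vector TAC they were lower by 1.05 ± 0.18 on the log2 scale (limma, adjusted p = 0.0047).

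Ankrd1, a stretch-sensitive titin-associated protein and transcriptional cofactor of cardiac muscle, followed the same order. Its values were 7801, 7371 and 13117 in vector sham, 37148, 24188 and 31785 in PRODH TAC, and 55188, 63516 and 58112 in vector TAC hearts. No group overlapped another among these, and PRODH TAC exceeded vector sham by 1.75 ± 0.24 on the log2 scale (limma, adjusted p = 0.013). Ankrd23, a related ankyrin repeat protein of the sarcomere, was at 201, 279 and 270.1 in vector sham and 695, 477 and 663 in PRODH TAC hearts. This was 1.28 ± 0.20 higher (limma, adjusted p = 0.020), and the PRODH TAC values overlapped those of vector TAC (719.5, 598 and 734). Of the 50-base windows of its transcript 88.7% also occur in the read-through gene Gm42417 of the GENCODE M21 annotation, so its reads may be shared.

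Abra, an actin-binding protein of striated muscle, rose from 509, 918 and 567 normalised counts in vector sham to 2304, 1778 and 2218 in PRODH TAC hearts. The groups were well separated (log2 difference 1.70 ± 0.20; limma, adjusted p = 0.0030), and the highest PRODH TAC heart lay just under the lowest vector TAC heart at 2378. Klhl34, a little studied member of the kelch-like family, had a narrow spread. It stood at 68.9, 82.4 and 83.0 in vector sham, at 208, 197 and 209.7 in PRODH TAC, and at 179.6, 188 and 230.1 in vector TAC hearts. The difference from vector sham was 1.38 ± 0.16 (limma, adjusted p = 0.0030), and that from vector TAC was 0.05 with a 95% interval from -0.29 to 0.39.

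Uck2, which phosphorylates uridine and cytidine in nucleotide salvage, was at 580.0, 599 and 704 normalised counts in vector sham and at 1649, 962 and 1191 in PRODH TAC hearts (log2 difference 0.98 ± 0.16; limma, adjusted p = 0.029). Vector TAC hearts were higher still, at 2286, 2609 and 2258, and PRODH TAC was lower than these by 0.94 (limma, adjusted p = 0.0050). Tnfrsf12a, the receptor of the cytokine TWEAK, rose from 753, 849 and 515 to 1692, 1543 and 1805. The groups did not overlap (1.28 ± 0.19; limma, adjusted p = 0.016), and every PRODH TAC heart was below every vector TAC heart, which began at 2129.5. Ccn1, a secreted matricellular protein and target of the YAP pathway, was at 522, 562 and 882 in vector sham and at 1980.4, 1184 and 1920.1 in PRODH TAC hearts. Its difference was 1.37 ± 0.22 (limma, adjusted p = 0.024), and the PRODH TAC range took in the whole vector TAC range of 1319.7 to 1760.2.

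**Figure D2:**
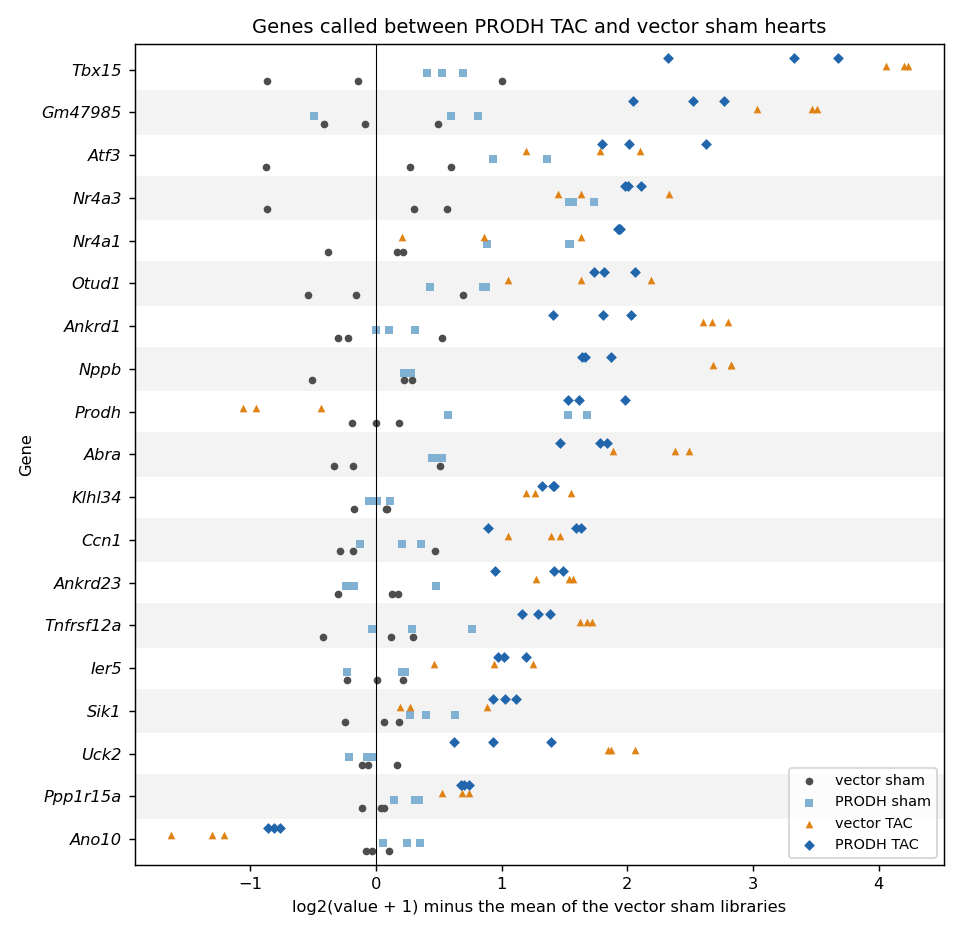
Log2(value + 1) of the 19 called genes in each of the 12 libraries, as the difference from the mean of the 3 vector sham libraries (horizontal axis); genes are ordered by their log2 difference and symbols mark the 4 groups. PRODH TAC values (blue diamonds) lie below all vector TAC values (orange triangles) for 7 genes, above them for Prodh, Nr4a1, Sik1 and Ano10, and overlap them for the other 8; over all genes 10% lay below and 10.6% above vector TAC without overlap.

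Rapidly induced regulators made up the next set. Nr4a1, an orphan nuclear receptor induced within an hour by many stimuli, stood at 154, 235 and 226 normalised counts in vector sham and at 767, 779 and 774 in PRODH TAC hearts. The PRODH TAC hearts agreed closely and lay far above the vector sham hearts (1.94 ± 0.28; limma, adjusted p = 0.013). Vector TAC hearts were spread over 233, 367 and 625, all below PRODH TAC, and that difference, 1.04 on the log2 scale, just missed the threshold (limma, adjusted p = 0.051). PRODH sham hearts held 588, 373 and 586, above all vector sham hearts, which was not called (1.32; limma, adjusted p = 0.91).

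Nr4a3, a close relative of Nr4a1, was at 45.2, 124 and 103 in vector sham and at 339, 333 and 363 in PRODH TAC hearts. It was 2.03 ± 0.29 higher (limma, adjusted p = 0.013), inside the vector TAC range of 229.8 to 425 and above the PRODH sham values of 249, 244 and 280.1. Nr4a2, the remaining member of this receptor family, was at 20.6, 25.4 and 12.6 against 44.7, 32.9 and 52.7, without overlap but not called (1.14 ± 0.34; limma, adjusted p = 0.39). Sik1, a salt-inducible kinase whose transcription follows cyclic AMP and calcium signals, rose from 511, 635 and 689 to 1241, 1157 and 1317. This was 1.03 ± 0.17 higher (limma, adjusted p = 0.033), and as for Nr4a1 every PRODH TAC heart was above every vector TAC heart, whose values were 694, 732 and 1123. The difference between PRODH TAC and vector TAC hearts was not called for Sik1 (limma, adjusted p = 0.080).

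Atf3, a stress-induced transcription factor of the ATF/CREB family, was at 126, 159 and 56.7 normalised counts in vector sham and at 367, 426 and 651 in PRODH TAC hearts (2.15 ± 0.33; limma, adjusted p = 0.016). Its PRODH TAC values overlapped those of vector TAC (241, 363 and 451) and exceeded those of PRODH sham (200.3, 270.4 and 270.2). Ppp1r15a, the stress-induced phosphatase subunit GADD34 that restores translation after eIF2 phosphorylation, had the smallest difference of the called genes but very even values. It stood at 327, 291 and 323 in vector sham and at 501, 511 and 523 in PRODH TAC hearts, 0.71 ± 0.11 higher (limma, adjusted p = 0.024) and beside 451, 524 and 503 in vector TAC hearts. Ier5, an immediate early gene, rose from 892, 771 and 653 to 1499, 1556 and 1755 and was the member closest to the threshold (1.06 ± 0.19; limma, adjusted p = 0.046). Otud1, a deubiquitinase, was at 469, 850.3 and 361 in vector sham and at 1745, 1849 and 2188 in PRODH TAC hearts (1.87 ± 0.28; limma, adjusted p = 0.016), within the vector TAC range of 1089.9 to 2398.

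The immediate early genes were counted as a list, whose members are also sensitive to how tissue is handled after death. Of 29 tested, 4 were called higher by limma (Nr4a1, Atf3, Ppp1r15a and Ier5; DESeq2 6, with Egr3 and Myc) and 0 lower, 10 were higher at an unadjusted p under 0.05, 12 lay above vector sham without overlap, beside 6.39% of all genes, and the median difference was 0.42 (median of vector TAC minus vector sham 0.26). The classic members Fos, Egr1 and Junb overlapped. Fos was at 86.4, 43.5 and 33.6 in vector sham and 53.6, 92.2 and 71.4 in PRODH TAC hearts. Egr1 was at 385, 156 and 115 against 173, 222 and 328, and its difference of 0.29 turned to -0.074 without vector sham replicate 3. The mean level of the list over the vector sham mean was 0.23, 0.09 and -0.33 in the vector sham libraries and 0.52, 0.55 and 0.80 in the PRODH TAC libraries. PRODH sham libraries held 0.11, 0.24 and 0.53 and vector TAC libraries 0.06, 0.60 and 0.86. The PRODH TAC libraries thus lay above all vector sham libraries but overlapped both other groups, and the vector TAC libraries spread most widely. The sources used here do not describe how long tissue was handled, and the part of handling in these values was not tested.

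Tbx15, a developmental T-box transcription factor, showed the largest difference among the called genes from a low base. Vector sham hearts held 5.14, 2.72 and 12.6 normalised counts, PRODH TAC hearts 85.4, 32.9 and 67.0 and vector TAC hearts 124, 112 and 126. The groups did not overlap, and PRODH TAC was 3.11 ± 0.44 above vector sham on the log2(value + 1) scale (limma, adjusted p = 0.013). Gm47985, a predicted protein-coding retrogene, was at 8.23, 16.3 and 10.5 in vector sham and at 69.5, 49.4 and 82.3 in PRODH TAC hearts (2.44 ± 0.37; limma, adjusted p = 0.016). As a predicted gene it lies outside the rule by which genes were named, and it was added after its values were seen because the called set is small. It shares 49.2% of its 50-base windows with Gm8947, so its counts are uncertain.

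Ano10, a member of the anoctamin family of membrane proteins, was the one gene called lower. It stood at 919, 836 and 808 normalised counts in vector sham and at 485, 503 and 469.9 in PRODH TAC hearts. All PRODH TAC hearts were below all vector sham hearts, a fold of 0.569 (log2 difference -0.81 ± 0.13; limma, adjusted p = 0.023). Vector TAC hearts were lower still, at 369, 276 and 346, and PRODH TAC exceeded these by 0.57 (limma, adjusted p = 0.024).

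The comparison with the same virus on both sides, PRODH TAC against PRODH sham, shares the PRODH TAC libraries and called 5 genes of 21173 (0.0236%). These were Nppb (1.46 ± 0.18), Klhl34 (1.36 ± 0.16), Ankrd1 (1.61 ± 0.24), Uck2 (1.08 ± 0.16) and Ano10 (-1.03 ± 0.13), with adjusted p from 0.0066 to 0.036 (limma). Abra had an adjusted p of 0.057, Tbx15 0.066 and Nr4a1 0.57 there. For Prodh, Nr4a1, Nr4a3, Atf3, Ppp1r15a and Sik1 all PRODH sham hearts were above all vector sham hearts, whereas for the other 13 these groups overlapped. Over all genes 6.33% had PRODH sham above vector sham without overlap, and the 19 were called against the same vector sham libraries, so their count is a description only. PRODH sham minus vector sham had 0 calls by limma and by edgeR among all genes and 7 by DESeq2, with 871 genes at an unadjusted p under 0.05 and an adjusted p of 0.62 for Prodh itself (limma).

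Just outside the threshold lay Fgf6, a muscle fibroblast growth factor, at 4.11, 8.15 and 13.7 normalised counts in vector sham and 81.4, 36.2 and 81.2 in PRODH TAC hearts (2.84 ± 0.51; limma, adjusted p = 0.059). It is named because it was next in rank, as Ier5 was the last inside. Thbs1, a matricellular activator of latent TGF-beta, was at 158, 288 and 169 in vector sham and at 949, 937 and 943 in PRODH TAC hearts (2.25 ± 0.42; limma, adjusted p = 0.074). Gdf15, a stress-induced cytokine, was at 17.5, 22.6 and 27.3 against 149, 65.9 and 192 (2.43 ± 0.46; limma, adjusted p = 0.075). Myc was at 35.0, 40.7 and 38.9 against 120.1, 86.7 and 114 (1.45 ± 0.29; limma, adjusted p = 0.10). DESeq2 called all 4 and edgeR called Fgf6. None of these 4 genes overlapped between the groups, a property that 6.39% of all genes shared above vector sham and 6.09% below it. Lower genes were among the same ranks, and 3 are named by rank alone. Adrb1 ranked 23 (-0.99 ± 0.19; limma, adjusted p = 0.075) and Fmo1 24 (-0.68 ± 0.13; limma, adjusted p = 0.075). Amd1 ranked 26 (-0.60 ± 0.12; limma, adjusted p = 0.092). In vector TAC minus vector sham, Adrb1 and Amd1 were also lower, by -1.18 and -0.85 (limma, adjusted p = 0.0011 and 0.00035). Fmo1 differed there by -0.17 and was not called (limma, adjusted p = 0.54).

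Of 31 natriuretic and fetal programme genes, 3 were called higher by limma (Nppb, Ankrd1 and Uck2) and 0 lower. DESeq2 called 6 higher, adding Rcan1, Xirp1 and Xirp2, and at an unadjusted p under 0.05 there were 11 higher and 3 lower. In this list 10 lay above vector sham without overlap (6.39% of all genes did so) and 6 below (6.09% of all genes). The median difference was 0.47. Acta1, skeletal muscle actin re-expressed under load, was at 3132, 2719 and 21556 normalised counts in vector sham and at 90951, 23061 and 63673 in PRODH TAC hearts. The groups did not overlap, but vector sham replicate 3 lay close to the lowest PRODH TAC heart, and the difference of 3.17 ± 0.64 was not called (limma, adjusted p = 0.12). Nppa, the atrial natriuretic peptide gene, was at 446, 614 and 810.2 against 809, 1675 and 1592. One PRODH TAC heart thus fell inside the vector sham range, and the difference was 1.09 (95% interval 0.21 to 1.97; limma, adjusted p = 0.63), while vector TAC hearts reached 5789.8, 22464 and 15172. Against those, PRODH TAC was lower by 3.28 ± 0.41 on the log2 scale (limma, adjusted p = 0.00095).

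Myh7, the slow myosin heavy chain of the fetal programme, was at 491, 796 and 1725 normalised counts in vector sham and at 2451, 1277 and 1781 in PRODH TAC hearts. These ranges overlapped (1.02, 95% interval 0.02 to 2.01; limma, adjusted p = 0.80). Vector TAC hearts held 4242, 17684 and 14192. Myh6, the adult fast myosin, was at 128235, 233896 and 254283 against 172266, 204509 and 168295 (-0.12, 95% interval -1.05 to 0.81), and Atp2a2, the calcium pump SERCA2, differed by -0.17 (95% interval -0.99 to 0.65), both with overlap. Their small differences reached or passed 0 under quantile normalization.

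**Figure D3:**
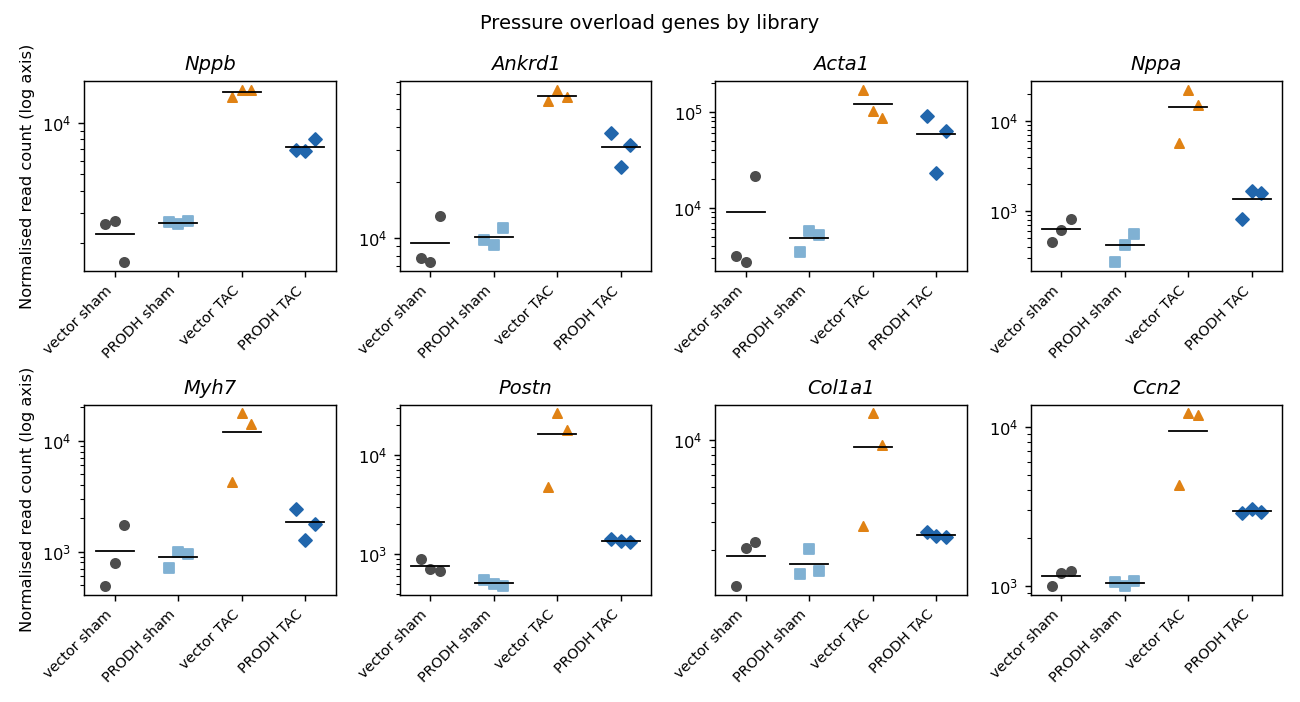
Normalised read counts (vertical axis, logarithmic) of 8 pressure overload genes in the 12 libraries by group, with black bars at the group means. The PRODH TAC hearts lie apart from the vector sham hearts for Nppb and Ankrd1, while for Nppa and Myh7 both groups overlap and vector TAC lies far above.

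Sarcomere and stretch genes outside the called set had more positive than negative differences, 26 of 37. By limma 0 of these sarcomere, Z-disc and costamere genes were called (DESeq2 3, Synpo2l, Flnc and Nrap, and 3 higher and 2 lower at an unadjusted p under 0.05). Without overlap, 6 lay above vector sham (6.39% of all genes did so) and 3 below (6.09% of all genes), and the median difference was 0.21. The mean level of the list over the vector sham mean was -0.22, -0.01 and 0.24 in vector sham libraries. It was 0.17, 0.22 and 0.22 in PRODH TAC libraries, all below vector sham replicate 3, and 0.15, 0.10 and 0.19 in PRODH sham libraries. Synpo2l, a Z-disc protein, was at 942, 1546 and 1823 normalised counts in vector sham and at 3029, 3138 and 3089 in PRODH TAC hearts (1.16 ± 0.25; limma, adjusted p = 0.17). Flnc, filamin C of the Z-disc, was at 2128, 4133 and 4823 against 8238, 6124 and 7174 (1.03 ± 0.24; limma, adjusted p = 0.19). Rcan1, a calcineurin target and inhibitor, was at 1137, 1421 and 1305 against 3074, 1716 and 2861 (0.95 ± 0.21; limma, adjusted p = 0.18). In each of these the groups were separate, with the PRODH TAC hearts higher. None passed the limma test, while DESeq2 called all 3 (adjusted p from 0.0064 to 0.017).

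Collagen genes had small positive differences that did not pass the test. Of 20 fibrillar and network collagens 0 were called by limma or DESeq2 (2 at an unadjusted p under 0.05). All 20 had positive differences between 0.06 and 1.00. Without overlap, 7 lay above vector sham (6.39% of all genes did so) and 0 below it (6.09% of all genes). The median was 0.36, while it was 1.56 for vector TAC minus vector sham, with 15 called higher. Col1a1, the main fibrillar collagen chain, was at 1182, 2046 and 2231 normalised counts in vector sham and at 2601, 2467 and 2402 in PRODH TAC hearts (0.50, 95% interval -0.39 to 1.39). PRODH TAC lay just above vector sham without overlap, and vector TAC hearts held 2820.1, 14726 and 9337. Col3a1 was at 3050.2, 4299 and 5148 against 5430.0, 4988 and 5503, with overlap (0.38, 95% interval -0.23 to 0.99). Postn, periostin of activated fibroblasts, was at 896, 712 and 673 against 1427, 1349 and 1335, without overlap (0.86 ± 0.40; limma, adjusted p = 0.82), beside 4752, 26238 and 17799 in vector TAC hearts. The spread behind these SEs and intervals is shared by the 12 libraries, so the wide vector TAC values of Col1a1 and Postn enter it. In bulk tissue, fewer cells of a type and less RNA per cell cannot be told apart.

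Of 48 matricellular and matrix protein genes only Ccn1 was called by limma (4 by DESeq2, with Thbs1, Ccn2 and the lower Ogn). Without overlap, 13 lay above vector sham (6.39% of all genes did so) and 3 below (6.09% of all genes). The median was 0.23, while it was 1.60 with 33 called higher for vector TAC minus vector sham. Ccn2, connective tissue growth factor, was at 1001, 1202 and 1246 normalised counts in vector sham, at 2855, 3056 and 2915 in PRODH TAC and at 4299, 12125 and 11883 in vector TAC hearts. None of the 3 groups overlapped; the difference from vector sham was 1.36 ± 0.28 (limma, adjusted p = 0.13). Cilp, a matrix protein of cardiac fibroblasts, was at 198, 248 and 389 against 763, 530.4 and 587 (1.21 ± 0.36; limma, adjusted p = 0.39), far below the 3286, 11781 and 10057 of vector TAC hearts. Mfap4, a microfibril-associated protein, was at 285, 254 and 324 against 572, 406 and 536 (0.80; limma, adjusted p = 0.36). Ogn, osteoglycin, had lower values in PRODH TAC hearts, at 2082, 1774 and 1346 against 1102, 1205 and 1205 (-0.54; limma, adjusted p = 0.29).

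The TGF-beta family (31 genes) and the matrix proteases and inhibitors (31 genes) had 0 limma calls each, with medians of 0.17 and 0.14. Without overlap, 13 and 7 genes lay above vector sham (6.39% of all genes did so) and 2 and 2 below (6.09% of all genes). At an unadjusted p under 0.05 there were 7 higher and 3 lower genes in the TGF-beta family and 4 higher and 2 lower among the proteases and inhibitors; DESeq2 called 2 and 3, among them Gdf15, Adamts8 and Timp4. Adamts8, a metalloprotease, was at 5.14, 12.7 and 6.30 normalised counts in vector sham and at 30.8, 47.2 and 42.8 in PRODH TAC hearts (2.26 ± 0.44; limma, adjusted p = 0.10). Timp4, the metalloprotease inhibitor most typical of heart, was lower, at 2540.1, 1913 and 1235 against 1178, 1049.7 and 899, without overlap (-0.81 ± 0.20; limma, adjusted p = 0.24). For 14 markers of activated fibroblasts and myofibroblasts 0 were called by limma or DESeq2. At an unadjusted p under 0.05 there were 4 higher (3.36% of all genes) and 1 lower (2.76% of all genes). Of these markers 5 lay above vector sham without overlap (6.39% of all genes did so) and 1 below (6.09% of all genes). The median was 0.83, beside 2.89 for vector TAC minus vector sham. Their mean level over the vector sham mean ran from 0.56 to 0.67 in PRODH TAC libraries, from -0.12 to 0.10 in vector sham libraries and from 1.81 to 3.58 in vector TAC libraries, so the 3 groups were apart.

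**Figure D4:**
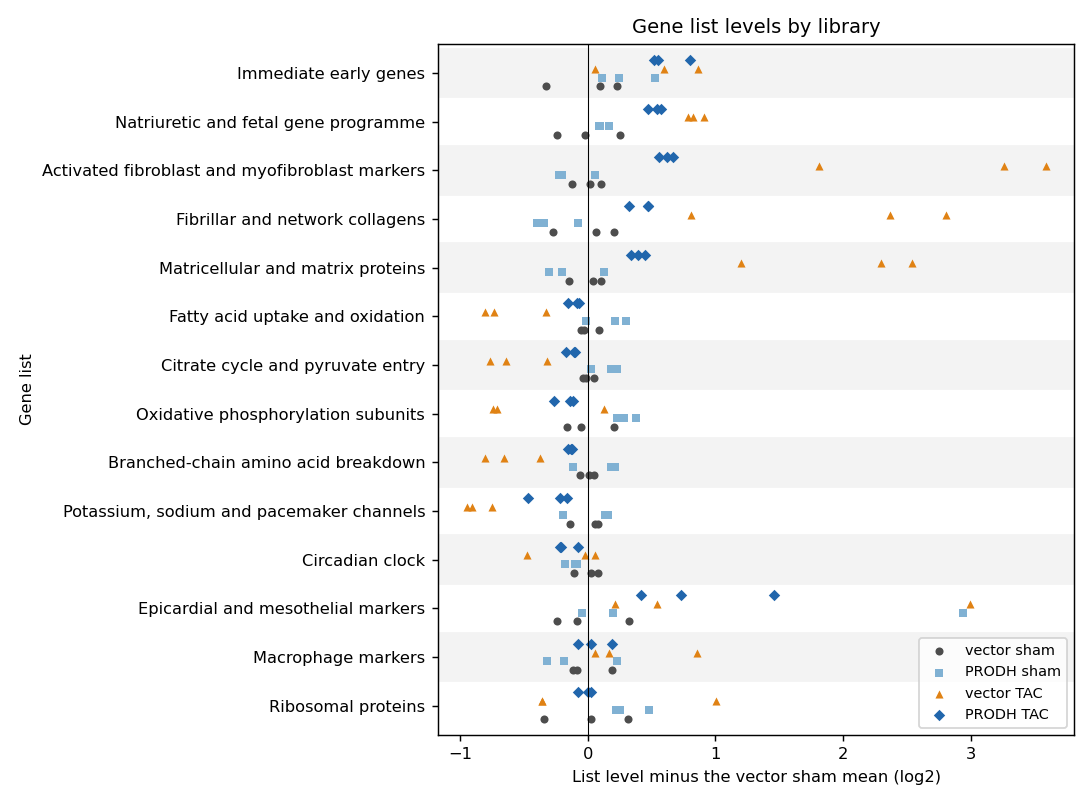
Mean log2(value + 1) over the tested members of 14 gene lists in each library, minus the mean of the vector sham libraries (horizontal axis); symbols mark the 4 groups. PRODH TAC libraries (blue diamonds) lie between -0.26 and -0.07 for the 4 lists of fatty acid, citrate cycle, oxidative phosphorylation and branched-chain amino acid genes, and between 0.33 and 0.67 for activated fibroblast, collagen and matrix genes. For oxidative phosphorylation the vector sham libraries, from -0.16 to 0.21, overlap the PRODH TAC libraries.

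Most genes of fatty acid oxidation, the citrate cycle and the respiratory chain had small negative differences. Of 48 genes of fatty acid uptake and oxidation 37 had negative differences. Without overlap, 10 lay below vector sham (6.09% of all genes did so) and 0 above (6.39% of all genes). The median was -0.13, beside -0.69 with 30 called lower for vector TAC minus vector sham. Acadvl, the very long chain acyl-CoA dehydrogenase, was at 6211, 7849 and 5991 normalised counts in vector sham and at 4716, 5860.3 and 4852 in PRODH TAC hearts, just separate (-0.37, 95% interval -0.76 to 0.01). Acot1, an acyl-CoA thioesterase that follows fatty acid signals, was at 176, 187 and 191 against 105, 143 and 126, and at 64.7, 24.5 and 26.7 in vector TAC hearts. Cpt1b, the muscle isoform of the mitochondrial fatty acid importer, was at 46.3, 69.7 and 34.7 against 61.5, 54.9 and 56.0, with overlap (0.25, 95% interval -0.35 to 0.85).

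Of 30 citrate cycle and pyruvate genes 10 lay below vector sham without overlap (median -0.14), of 50 oxidative phosphorylation subunits 14 (median -0.16) and of 23 genes that break down branched-chain amino acids 9 (median -0.14). In all genes 6.09% did so. In these lists and that of fatty acid genes 0 were called by limma, edgeR or DESeq2, and at an unadjusted p under 0.05 there was 1 lower gene in each list except the subunits, which had 0. The oxidative phosphorylation differences stayed between -0.41 and 0.09, and the complex I subunit Ndufs1 was at 8116, 8884 and 7729 against 6385, 7351 and 6552. The mean level of the subunits over the vector sham mean overlapped between the groups. It was 0.21, -0.16 and -0.05 in vector sham libraries and -0.26, -0.11 and -0.14 in PRODH TAC libraries. Gpt2, the mitochondrial alanine aminotransferase, was at 823, 1032 and 905 in vector sham, 594, 626 and 595 in PRODH TAC and 479, 239 and 297 in vector TAC hearts (-0.60 ± 0.19 against vector sham; limma, adjusted p = 0.46). Pfkfb1, a regulator of glycolytic flux, was at 213, 235 and 139.8 against 62.5, 96.6 and 111 (-1.12 ± 0.32; limma, adjusted p = 0.36; DESeq2, adjusted p = 0.023). It is in the list of glucose uptake and glycolysis, of whose 30 genes limma called 0 and DESeq2 this 1, with 2 higher and 1 lower at an unadjusted p under 0.05. Its 3 groups were in the order vector sham, PRODH TAC and vector TAC (33.5, 11.9 and 21.2) without overlap.

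Among 24 nuclear regulators of metabolism, Nr4a1 and Nr4a3 were called. Ppargc1b, a coactivator of mitochondrial genes, was at 112, 160.3 and 161 normalised counts in vector sham and higher in PRODH TAC hearts, at 237, 213 and 267, while vector TAC hearts lay at 68.0, 58.0 and 118. The difference from vector sham was not called (0.74 ± 0.25; limma, adjusted p = 0.55), and that from vector TAC was 1.60 (limma, adjusted p = 0.0030). Klf15, a regulator of cardiac lipid and amino acid use and a brake on hypertrophy, was at 1108, 1244 and 1555 against 800.1, 955 and 711 (-0.66 ± 0.20; limma, adjusted p = 0.39).

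Ion channels and adrenergic signalling genes included several with lower values short of a limma call. Of 32 potassium, sodium and pacemaker channel genes 24 had negative differences. Without overlap, 6 lay below vector sham (6.09% of all genes did so) and 1 above (6.39% of all genes). The median was -0.17, beside -0.85 with 17 called lower for vector TAC minus vector sham. By limma 0 were called, 6 were lower at an unadjusted p under 0.05, and DESeq2 called Kcnj2 and Kcnj12. Kcnj2, the main inward rectifier of ventricular myocytes, was at 358, 511 and 325 normalised counts in vector sham and at 153, 213 and 178 in PRODH TAC hearts, overlapping the 115, 158 and 114 of vector TAC hearts (-1.11 ± 0.23 against vector sham; limma, adjusted p = 0.13). Kcnj12, a further inward rectifier, was at 346, 372 and 355 against 222, 260.2 and 178 (-0.71 ± 0.15; limma, adjusted p = 0.13). Of 27 neurohormonal signalling genes 13 had positive and 14 negative differences (median -0.02); limma called 0, with 1 higher and 5 lower at an unadjusted p under 0.05, and DESeq2 called Adrb1 and Rgs2 lower. Adrb1, the beta1 adrenergic receptor, was at 296, 423 and 273 against 136, 180.1 and 177, without overlap (-0.99 ± 0.19; limma, adjusted p = 0.075). Rgs2, an inhibitor of Gq signalling, was at 829.9, 764 and 418 against 164, 327 and 242 (-1.45 ± 0.36; limma, adjusted p = 0.24).

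Of 24 circadian clock genes 0 were called by limma and 1, Tef, by DESeq2. At an unadjusted p under 0.05, 9 were lower, beside 2.76% of all genes. Without overlap, 8 lay below vector sham (6.09% of all genes did so) and 1 above (6.39% of all genes). The median was -0.19, beside -0.21 for vector TAC minus vector sham. The clock output factor Tef was at 3509, 3018 and 3330.0 normalised counts in vector sham, 1886, 2676 and 2165 in PRODH TAC and 2128, 2204 and 2454 in vector TAC hearts. Hlf, of the same family, was at 651, 704 and 608 in vector sham and at 255, 495 and 335 in PRODH TAC hearts (-0.90 ± 0.23; limma, adjusted p = 0.27). The sources used here do not give the time of day of tissue collection, and its part in these values was not tested.

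Of 41 angiogenic and endothelial signal genes 0 were called by limma or DESeq2. At an unadjusted p under 0.05 there were 4 higher and 4 lower, and the median was -0.11. The lowest difference of this list was that of Angptl7. Angptl7, a secreted angiopoietin-like protein, was at 117, 70.6 and 78.8 normalised counts in vector sham, at 25.8, 31.8 and 17.6 in PRODH TAC and at 239.8, 1089 and 914 in vector TAC hearts. Its values were below vector sham in PRODH TAC hearts (-1.79 ± 0.49; limma, adjusted p = 0.33, not called), and it rose in vector TAC hearts (2.82; limma, adjusted p = 0.0021). Cacng6, a calcium channel gamma subunit, was at 53.5, 43.5 and 18.9 in vector sham, 8.93, 8.78 and 9.88 in PRODH TAC and 2.23, 1.49 and 0 in vector TAC hearts (-1.84 ± 0.51 against vector sham; limma, adjusted p = 0.33; DESeq2, adjusted p = 0.015). It had the lowest difference of 29 calcium cycling genes, of which limma called 0 and DESeq2 this 1. Of these genes 17 had positive and 12 negative differences, and the median was 0.04.

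Markers of cell types showed 0 limma calls in every list, while DESeq2 called Scara5 among the fibroblast markers and Aldh1a2 among the epicardial ones. At an unadjusted p under 0.05 these lists had 0 to 3 genes each, except lymphocytes with 4 higher and 2 lower of 18 and activated fibroblasts, given above. Median differences were -0.09 for 17 endothelial markers, -0.05 for 13 pericyte and smooth muscle markers, 0.03 for 21 macrophage markers and -0.10 for 16 markers of resting fibroblasts. The 13 ventricular myocyte markers had a median of -0.03. Medians lay farther from 0 in several shorter lists: 0.55 for 6 lymphatic endothelial, 0.53 for 11 endocardial and valve, 0.55 for 9 adipocyte, 0.42 for 11 atrial myocyte, 0.33 for 8 erythroid, -0.40 for 8 skeletal muscle and -0.58 for 11 neutrophil and mast cell markers. They were 0.16 for 18 lymphocyte and 10 Schwann and neuronal markers and 0.98 for 3 lung and thymus markers. The part of these cells in the results was not tested. Epicardial and mesothelial markers (15 tested) had a median of 0.82, and their mean level over the vector sham mean was 0.73, 0.42 and 1.46 in the PRODH TAC libraries against -0.08, -0.24 and 0.32 in the vector sham libraries. Summed over the list, vector sham libraries held 1500.4, 2278 and 4173 normalised counts and PRODH TAC libraries 1919.8, 2926 and 1814. Upk3b, the defining mesothelial marker, was at 0 in all 3 vector sham libraries and at 2.98, 1.10 and 23.1 in the PRODH TAC libraries, and Msln at 0, 0 and 2.10 against 5.96, 1.10 and 11.0. The part of mesothelial cells was not tested within the 6 libraries. With the mesothelial-rich vector TAC replicate 1 and PRODH sham replicate 2 left out, a fit added after the data were seen called 73 genes, among them all 19. As given above, both left-out libraries also stood apart in erythroid markers.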

How the data were processed

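RNA from 12 mouse hearts was isolated with TRIzol, cleared of DNA with DNase I and turned into libraries with a SMARTER mRNA kit, per the labels. The sources used here do not give the aligner, the counting tool, strand use, build or annotation. In the 1 table that the authors deposited, each value is a signal: a gene's count over the size factor of its library. Whole reads came back for 100% of values (tolerance 0.01). GENCODE M21 held 24735 of the 24775 identifiers. The genes described and the 45 gene lists were chosen with earlier results of these data known.

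As main test, limma-trend (limma 3.58.1, R 4.3.3) was run on log2(value + 1). It kept genes that reached a value of 1 in 3 or more libraries, fitted a mean per group with 1 spread shared by the 12 libraries, and called genes at a Benjamini-Hochberg adjusted p under 0.05. A wide spread in a reference group thus enters the SE of the comparison. For Thbs1 the SD was 990 normalised counts in vector TAC, 71.9 in vector sham and 6.19 in PRODH TAC hearts. A fold is the ratio of group means. A permutation of 3 against 3 cannot go below p = 0.1. Named were 14 fixed genes, the 10 largest called rises and falls with a mean of at least 20 that are not predicted genes, up to 5 members per list with the smallest p, members whose role is described, and 5 called genes with a mean of at least 1000; other names are marked, and some genes under this rule are not reported here. Alternatives were edgeR 4.0.16 and DESeq2 1.42.0 on recovered reads, other scalings, filters and pseudocounts, and leaving out each library. Within groups, libraries varied beyond sampling noise (chi-square statistic over its degrees of freedom at least 4.37). The procedure was tested on simulated data.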

Additional observations from a re-analysis of the deposited data

Results flagged for a closer look

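Among the genes named, 2 had an effect of the PRODH virus that differed between TAC and sham hearts by a test of that difference (interaction term, limma, Benjamini-Hochberg adjustment over all genes). Of all 21173 genes tested, this test called 22. For Mfap4 the log2 difference PRODH minus vector was lower in TAC than in sham hearts by 1.96 (value -1.96, adjusted p = 0.038): vector TAC hearts held 1534, 3153 and 2224 normalised counts and PRODH TAC hearts 572, 406 and 536, while sham hearts lay between 206 and 327. For Pdp2, a phosphatase that activates pyruvate dehydrogenase, it was higher in TAC hearts by 1.45 (adjusted p = 0.046): vector TAC hearts held 108, 87.0 and 124 and PRODH TAC hearts 237, 259 and 340.3, while vector sham hearts held 383, 311 and 439.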

How the results depend on the processing

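The number of called genes, 19, became 0 with only the 6 libraries compared and 0 with a minimum fold of 1.5 (smallest adjusted p 0.15; 216 genes at an unadjusted p under 0.05), 107 with DESeq2 on recovered reads, and, added after the data were seen, 73 without both mesothelial-rich libraries and 103 with edgeR on the 6 libraries compared. DESeq2 and these 2 added settings called all 19 among theirs. The counts ran from 1 to 79 over the fits that left out 1 library. Other settings gave 17 to 20: scaling by quantiles, the upper quartile or the library total, other filters, another pseudocount, edgeR on 12 libraries, and TMM scaling (18, also added after the data were seen). The replicate numbers do not pair the samples (correlations of same-numbered deviations -0.04, 0.11 and 0.05); a replicate block gave 24 calls, among them all 19. Small differences of uncalled genes changed sign: under quantile normalization Myh6 to 0.16, Tnnt2 to 0.033 and Atp2a2 to 0, and with library total scaling Aldh4a1 to 0.00047. Leaving out 1 library, Myh6 ran from -0.43 to 0.064, Aldh4a1 from -0.15 to 0.088 and Egr1 from -0.074 to 0.80. The cause of these shifts was not tested. With 3 libraries a group and 10.1 to 15.2 M reads, the intervals of uncalled genes span folds that matter, so a missed threshold does not show equality with vector sham.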
